A study of Mus musculus with 8 samples.

Results

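The genes described here are 10 genes of the smooth-muscle contractile programme, the actins Acta2 and Actg2, the transgelins Tagln and Tagln2, the calponins Cnn1 and Cnn2, the myosin light chain Myl9, the tropomyosins Tpm1 and Tpm2, and the transcription factor Srf. They were measured by 18 probes, out of 39429 probes on the array and 21612 gene symbols that those probes name. The group was chosen by a measured value, the lower Acta2 signal with irisin in these arrays, so the members were selected on the same comparison. The difference in Acta2 and the calls of the other genes in the same comparison are therefore given as a description, without a p-value.

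Gene expression was measured in AML12 cells, a non-tumor mouse hepatocyte line derived from a mouse transgenic for human TGF-α, on 8 one-color Agilent arrays. The control group was 4 samples of cells kept in DMEM F-12 with fetal bovine serum. The irisin group was 4 samples of cells kept in the same medium with 0.5 µg/ml irisin for 24 h. Irisin is the secreted part of the muscle membrane protein FNDC5. Each group is a culture of 1 cell line, and nothing in the labels says whether replicates were separate cultures on separate days, so the spread between them may be technical.

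In smooth muscle, actin and myosin filaments slide past each other, and the calponins, transgelins and tropomyosins bind along the actin filament. The genes for these proteins are classic targets of serum response factor (SRF), which binds the CArG box, and its cofactors of the MRTF family enter the nucleus when monomeric actin is used up by filament assembly. Acta2, the α-smooth muscle actin, is best known in liver as a marker of activated stellate cells and myofibroblasts. In hepatocytes, the cytoplasmic actins and the non-muscle members of these families do most of the work.

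The promoters are shown because the CArG box is the sequence that ties these genes to SRF. The genes were listed as SRF-dependent, so the counts of boxes describe that choice and are no result of these arrays. In RefSeq windows of 300 bases, 250 before and 50 after the annotated start on GRCm38.p6, 8 of the 10 genes had an entry. A CArG box (2 C, then 6 bases that are each A or T, then 2 G) was found in 3 of these 8, Srf, Myl9 and Cnn2, against 1.63% of all 32851 promoters of this length. Srf held 2 boxes, which 0.0183% of all promoters did. Acta2 held none without a mismatch but 2 with 1 mismatch in the inner 6 bases. Such a box with 1 mismatch was in 8.50% of all promoters, and Myl9 had 1 as well. Stretches of these windows around the boxes are printed. That of Acta2 is on chr19:34255378-34255477 (minus strand), that of Srf on chr17:46556195-46556264 (minus strand), that of Myl9 on chr2:156775283-156775394 (plus strand) and that of Cnn2 on chr10:79988524-79988573 (plus strand). The sequences read 5′ to 3′ along the gene, with the CArG boxes in capitals, those with 1 mismatch included.
Srf: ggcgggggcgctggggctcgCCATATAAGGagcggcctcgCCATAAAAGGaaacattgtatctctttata
Acta2: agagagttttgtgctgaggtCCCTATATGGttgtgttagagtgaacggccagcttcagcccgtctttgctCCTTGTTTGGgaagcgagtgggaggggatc
Myl9: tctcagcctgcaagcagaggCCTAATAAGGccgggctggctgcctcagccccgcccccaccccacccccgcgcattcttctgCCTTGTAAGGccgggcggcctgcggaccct
Cnn2: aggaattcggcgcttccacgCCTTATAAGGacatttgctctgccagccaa

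The Srf boxes began 82 and 62 bases before the start, the Cnn2 box 56 bases before it and the Myl9 box 161 bases before it. In Acta2, the boxes with 1 mismatch began 84 and 34 bases before the start. The MCAT motif (CATTCC, searched on both strands), the binding sequence of TEAD factors, was in the windows of Acta2, Tpm1 and Tagln2 and in 14.7% of all promoters. That of Acta2 began 146 bases before the start, outside the printed stretch. No CArG box was found in the windows of Tagln2, Cnn1, Tpm1 and Tpm2. A match of letters is no proof of binding, and boxes outside the window were not searched.

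**Figure D1:**
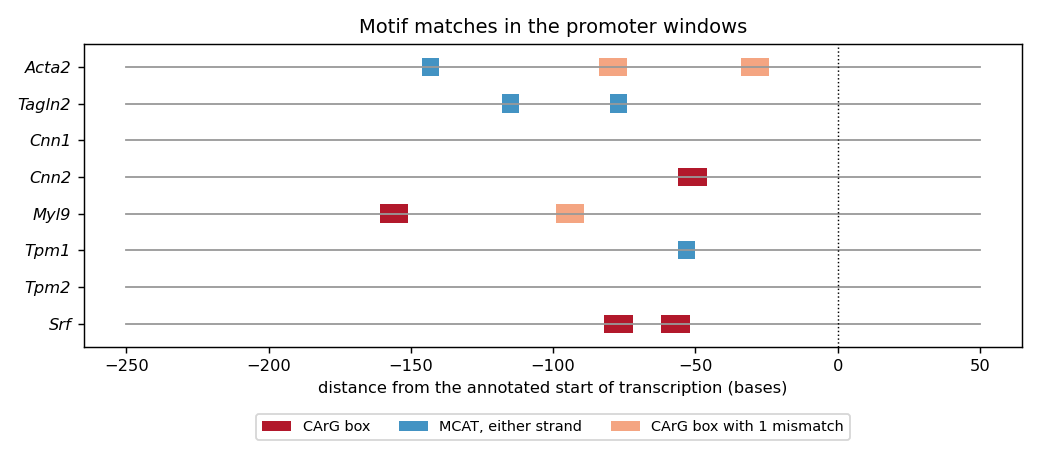
The horizontal axis gives the distance in bases from the annotated start of transcription, and each row is the RefSeq promoter window of 1 gene. Srf holds 2 CArG boxes, Myl9 and Cnn2 hold 1 each and Acta2 holds 2 with 1 mismatch.

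The arrays differed in overall brightness, which bears on every value below. The 75th percentile of the processed signal was 472 ± 70.1 in control (mean ± S.D., n = 4) and 783 ± 71.6 in irisin, a difference of 0.74 on the log2 scale, while 8 spike-in probes differed by 0.16. Between 59.5% and 64.1% of probes were well above background on an array. All control arrays were on one slide and all irisin arrays on another, each slide with its own scan, so the treatment cannot be told apart from slide or scan. Unless another scale is named, levels below are on the log2 scale with the 75th percentile of each array set to 0, and changes are irisin minus control with the standard error (SE) of a limma fit over 24093 probes.

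Of the 18 probes, 1 was lower with irisin at a fold of at least 1.5 and an adjusted p under 0.05, that of Acta2. The background was 11.7% of all tested probes called lower. No contractile gene probe was called higher, against a background of 0.714%. Each of the 18 was well above background on every array. Their median change was -0.13, and that of all tested probes was -0.080. A total of 13 changes were below 0 and 5 above. The other 17 probes ran from -0.50 for one Tagln2 probe to 0.21 for Myl9.

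Acta2 encodes α-smooth muscle actin, and its probe was printed in 10 spots. Its processed signal before any scaling was 10.1, 12.3, 14.1 and 14.7 in control and 12.2, 11.7, 13.2 and 16.2 in irisin. These signals overlapped, with 12.8 ± 2.10 in control and 13.3 ± 2.01 in irisin (mean ± S.D., n = 4). Relative to the 75th percentile, Acta2 was -5.30 to -5.08 in control and -6.03 to -5.72 in irisin, and the groups no longer overlapped. The change was -0.68 (SE 0.092), a ratio of 0.625, and ran from -0.74 to -0.63 when each array was left out in turn. The fall depended on the scaling. The change was 0.059 (SE 0.18) without scaling and -0.10 (SE 0.23) with scaling to the spike-in probes. Both were smaller than their SE, so neither shows a direction.

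The Acta2 signal was close to the background. Before background subtraction, the spots averaged 28.3 to 34.7 on the control arrays and 31.6 to 36.0 on the irisin arrays, whereas the local background was 22.6 to 23.3 and 19.3 to 23.7. The spots of negative control probes had a median of 17 to 19 in control and 19 to 20 in irisin. The standard deviation over the Acta2 spots of an array was 1.03 to 2.76. No change beyond slide and scaling, fewer cells that express Acta2 and less Acta2 RNA per cell cannot be told apart here. The RNA was bulk, and each group had its own slide.

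**Figure D2:**
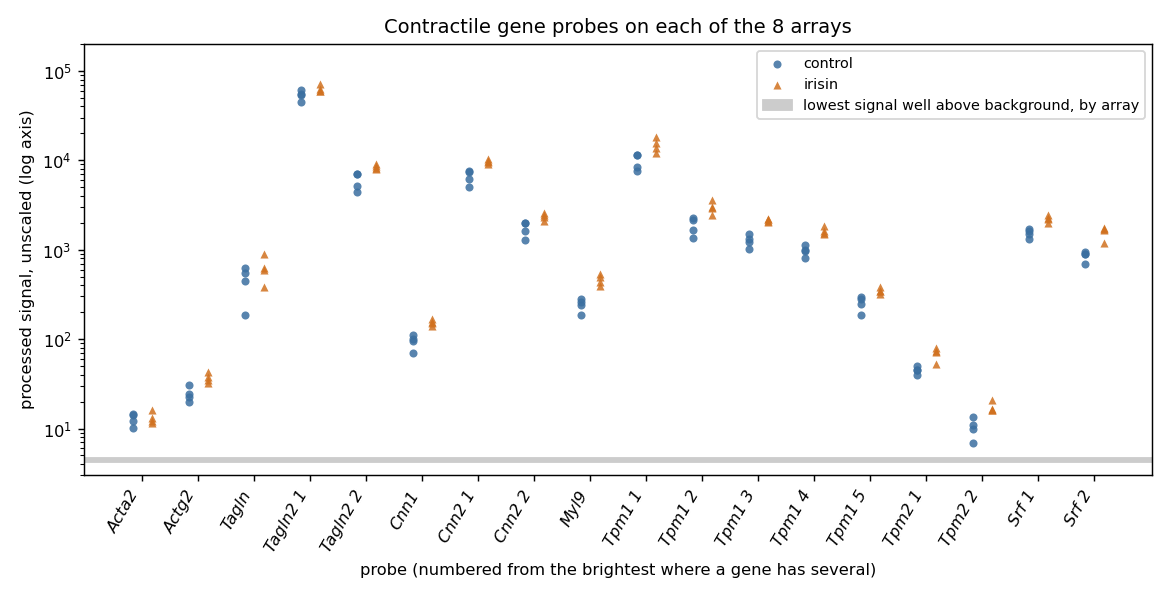
The vertical axis gives the unscaled processed signal on a log axis, with 4 control arrays (circles) and 4 irisin arrays (triangles) per probe, and the gray band is the lowest signal well above background on each array. The Acta2 signals overlap between groups at 10.1 to 16.2, whereas 15 of the 18 probes lie higher in every irisin array than in any control array.

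Actg2 encodes γ-smooth muscle actin, the enteric isoform. The unscaled signal was 19.8, 22.6, 30.4 and 24.2 in control and 32.1, 35.0, 37.3 and 42.3 in irisin. Every irisin array was above every control array on this scale, but the scaled groups overlapped and the change was -0.13 (SE 0.10). The unscaled groups of Actg2 were thus apart where those of Acta2 overlapped.

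The transgelins bind actin filaments, Tagln (SM22α) in smooth muscle and Tagln2 in many cell types. Tagln had the widest spread of all 18 probes. Its unscaled signal was 187, 446, 619 and 550.5 in control and 379, 624, 600 and 904 in irisin, and control replicate 1 and irisin replicate 1 were the lowest of their groups. The change was -0.20 (SE 0.29) and ran from -0.46 without control replicate 1 to 0.034 without irisin replicate 1. The bright Tagln2 probe (A_55_P1986296) read 44977, 53930, 60437 and 54711 in control and 59287, 59769, 62197 and 70928 in irisin, which overlapped. After scaling it was 6.83 ± 0.062 in control and 6.33 ± 0.11 in irisin without overlap, a change of -0.50 (SE 0.083) that stayed short of the 1.5-fold threshold. The second Tagln2 probe (A_55_P2141884) differed by -0.19 (SE 0.12) and its scaled groups overlapped.

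The calponins also bind actin and restrain the myosin ATPase, Cnn1 in smooth muscle and Cnn2 more broadly. Cnn1 had the smallest SE of the 18 probes. Its unscaled signal of 70.8, 95.9, 109.8 and 100.5 in control and 154.0, 141.9, 152.7 and 166.4 in irisin moved with the array, and the scaled change was -0.016 (SE 0.075). The Cnn2 probes differed by -0.14 (SE 0.098) and -0.26 (SE 0.11) with overlapping groups. Their control signals ran from 4983 to 7617 and from 1276 to 2005, and their irisin signals from 9210 to 10427 and from 2085 to 2579.

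Myl9 encodes a regulatory light chain of smooth-muscle and non-muscle myosin, whose phosphorylation starts contraction. Its unscaled signal was 185, 240, 283 and 259 in control and 392, 434, 497 and 535 in irisin. The change of 0.21 (SE 0.098) was the highest of the 18 probes and was not called. Irisin replicate 1 stood at -1.02, level with the lowest control array, where control ran from -1.02 to -0.92, and the other irisin arrays stood at -0.69 to -0.65. Without that replicate the change was 0.30.

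The tropomyosins lie along the actin filament and control the access of myosin. The 5 Tpm1 probes, which share a gene and are no replicates of each other, ran from -0.26 to 0.031. The dimmest (A_55_P2187053) was -0.91 ± 0.11 in control and -1.17 ± 0.055 in irisin without overlap, a change of -0.26 (SE 0.083). The other Tpm1 probes overlapped after scaling. For 2 of them (A_55_P2032192 and A_55_P2078680) irisin replicate 1 was the highest array of its group, at unscaled signals of 18052 and 3643, and their SE was 0.13. The Tpm2 probes differed by -0.13 (SE 0.11) and 0.050 (SE 0.11). The dimmer of them, A_52_P315976, read 7.0, 10.0, 13.4 and 10.8 in control and 16.5, 16.2, 15.9 and 21.1 in irisin. Its unscaled signal was higher on every irisin array than on any control array, which was not so for Acta2. With a background set from the negative control spots, Acta2 was -0.67, the dim Tpm2 probe -0.52 and Actg2 -0.44. That setting also added an offset of 50 to every spot, above the unscaled signal of these probes on every array. Such an offset by itself draws dim probes toward a common change, so the smaller difference between them cannot be read as a result.

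Srf encodes the factor itself, and its probes differed in sign. Probe A_55_P2149540 was 1.70 ± 0.088 in control and 1.52 ± 0.17 in irisin, a change of -0.18 (SE 0.10). Probe A_51_P100289 was 0.86 ± 0.038 in control and 0.99 ± 0.32 in irisin, a change of 0.13 (SE 0.14), and irisin replicate 1 was low at 0.56 against 1.00 to 1.35 on the other irisin arrays. Both pairs of groups overlapped. The probes of Srf give no single direction.

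**Figure D3:**
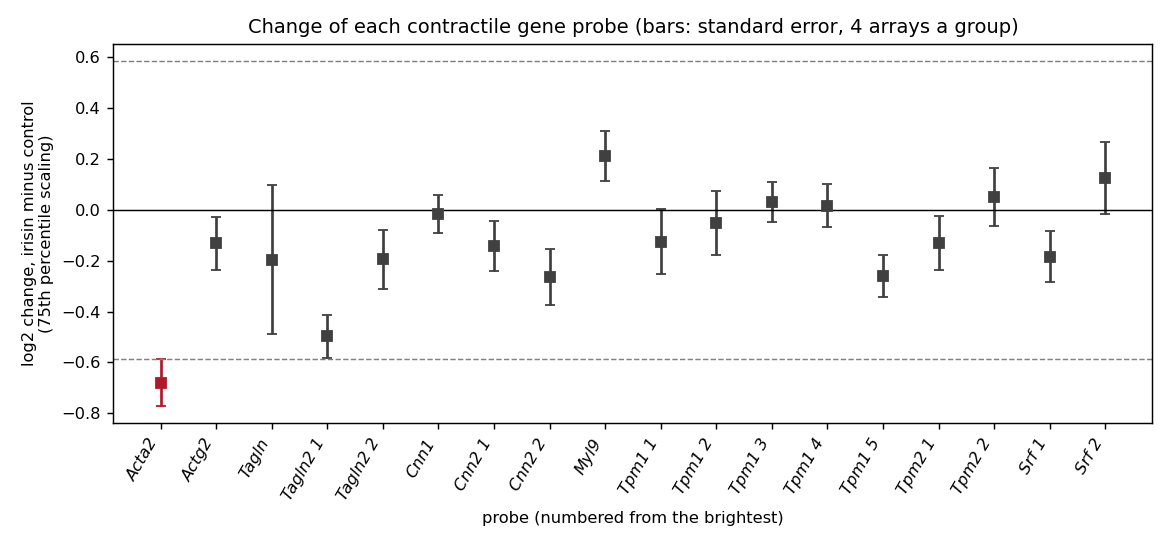
The vertical axis gives the log2 change, irisin minus control, relative to the 75th percentile, with bars for the standard error from 4 arrays a group and dashed lines at 1.5-fold. Acta2 at -0.68 is past the line with this scaling but was 0.059 without scaling, and the other 17 probes lie between -0.50 and 0.21.

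The count of probes without overlap showed the same split between scales. Scaled to the 75th percentile, 3 of 18 probes (Acta2, the bright Tagln2 probe and the dimmest Tpm1 probe) lay lower in every irisin array, against 23% of all tested probes, and none lay higher, against 4.18%. Unscaled, 15 of 18 lay higher in every irisin array, against 67.5% of all tested probes, none lay lower, against 0.618%, and Acta2, Tagln and the bright Tagln2 probe overlapped. With the adjusted p alone, 3 of 18 were lower and none higher, where 21.6% and 2.96% of all tested probes were.

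The scaling therefore set the direction for the group. Without scaling all 18 changes were above 0, from 0.059 for Acta2 to 0.95 for Myl9, and 11 of 18 were called higher (61.1%, background 61.9%). With scaling to the spike-in probes 5 of 18 were called higher (27.8%, background 32.4%), namely Myl9, 2 Tpm1 probes, 1 Tpm2 probe and 1 Srf probe. With quantile normalization and with cyclic loess none was called in either direction, where the background was 4.24% and 3.84% lower and 2.78% and 2.9% higher. The median of the 18 probes moved from -0.13 to 0.61 without scaling, and the median of all tested probes moved from -0.080 to 0.66.

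**Figure D4:**
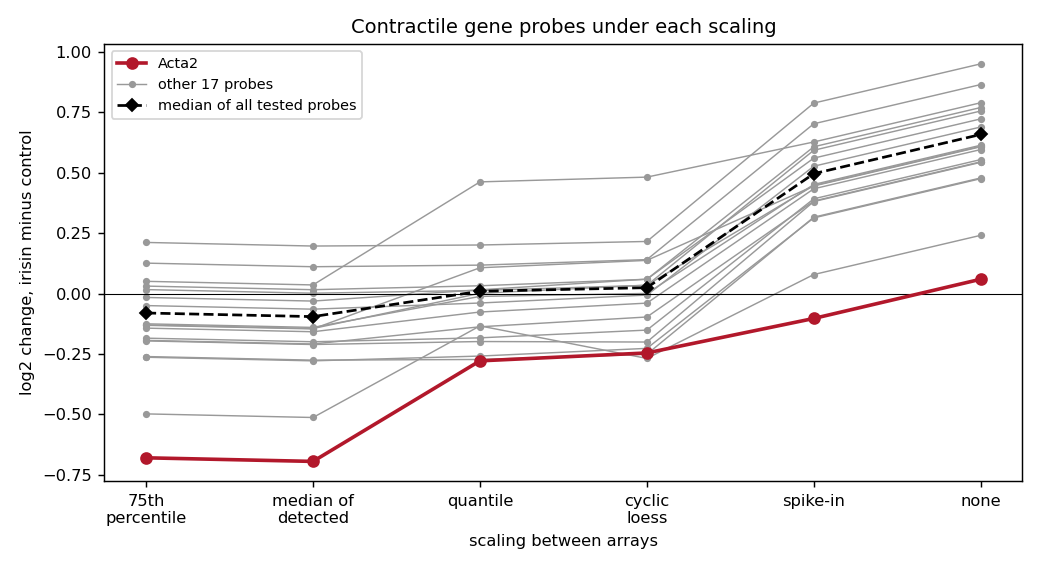
The vertical axis gives the log2 change, irisin minus control, and the horizontal axis the scaling between arrays. Acta2 runs from -0.68 with the 75th percentile to 0.059 without scaling, and the median of all tested probes (dashed) from -0.080 to 0.66.

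A comparison within each array needs no scaling. The group was chosen for the lower Acta2 signal in these arrays, so a low place of Acta2 among its members is no support for a fall. Nor does the comparison remove differences that go with signal level, which are described below. Against the median of the other genes' probes on the same array, with the control mean set to 0, Acta2 was -0.072 to 0.17 in control and -0.97 to -0.59 in irisin, on average -0.75. Against their mean, which was added after the median had been seen, it was -0.14 to 0.17 in control and -0.67 to -0.44 in irisin, on average -0.58. On both measures Acta2 was low in relation to the other contractile genes on all 4 irisin arrays. The bright Tagln2 probe, taken the same way, was -0.41 to -0.37 in irisin and -0.063 to 0.15 in control against the mean, and overlapped against the median. The share of all tested probes that part in this way was not computed. Against the median, Actg2 was also apart, at -0.30 to -0.12 in irisin and -0.081 to 0.13 in control. Against the mean, some probes lay wholly higher in irisin. These were Myl9 (0.18 to 0.50, control at most 0.068), Cnn1 (0.075 to 0.19, at most 0.063) and Tpm1 probe A_55_P2187043 (0.15 to 0.19, at most 0.13). Such a ratio shows unequal change and does not show which of the genes moved.

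The share of probes called lower was highest among the dimmest probes. The tested probes were split into deciles by mean signal, decile 1 being the dimmest. In decile 1 the median change was -0.51 and 45.2% were called lower, whereas in deciles 5 and 6 both medians were 0.0021. Acta2 lay in decile 2, where the median was -0.33 and 34.3% were called lower. Its change was inside the range of -0.97 to 0.19 between the 10th and 90th percentile of that decile. The dim Tpm2 probe lay in the same decile at 0.050, and Actg2 lay in decile 3, whose median was -0.15. The bright Tagln2 probe lay in decile 10, where the median was -0.20 and 2.24% were called lower. The part of signal level in these differences was not tested.

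**Figure D5:**
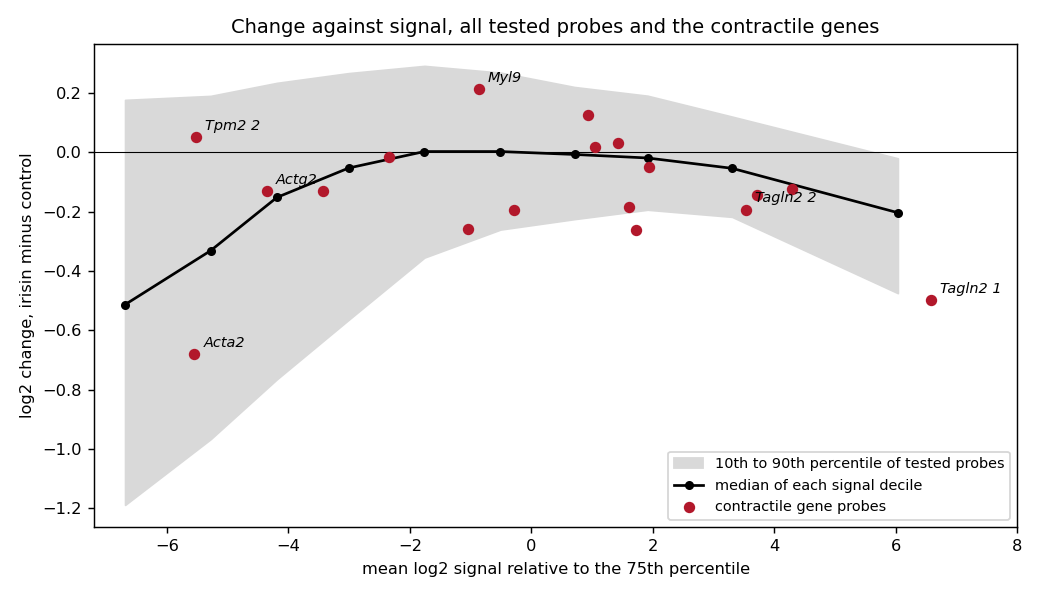
The horizontal axis gives the mean log2 signal relative to the 75th percentile and the vertical axis the log2 change, irisin minus control, with the median of each decile of the tested probes (black) and the 10th to 90th percentile (gray). Acta2 at -0.68 (0.059 without scaling) lies in decile 2, whose median is -0.33, and the dim Tpm2 probe lies there at 0.050.

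The probes whose pattern over the 8 arrays was most like that of Acta2 (highest Pearson r) were those of Olfr74 (r = 0.998), Alox5ap (r = 0.998), Acan (r = 0.996), Gm14635 (r = 0.995) and 4930567H12Rik (r = 0.995). Acan encodes the cartilage proteoglycan aggrecan and Alox5ap a protein of leukotriene synthesis. These r values describe 8 arrays of 2 groups, and 1461 tested probes had an r above 0.95. The 5 probes were dim, 3 of them in decile 1, Acan in decile 2 and Gm14635 in decile 3. Among the contractile genes, the bright Tagln2 probe came nearest (r = 0.956).

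The wider pathway was described with 7 lists of 68 genes, in which 56 genes had a tested probe and the brightest probe stood for its gene. Called lower were 2 genes, 3.57% against the background of 11.7%, and none was called higher. At an unadjusted p under 0.05 in the limma fit, 17 of the 56 were lower and 1 higher, where 27.8% and 6.45% of all tested probes were. A total of 40 of the 56 were below 0, and their median of -0.11 stood beside -0.080 for all tested probes. With quantile normalization 24 were below 0, with cyclic loess 25 and without scaling 1. The 2 called genes were Elk4 and Cfl1.

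Elk4, an SRF cofactor of the ternary complex factors, was -1.08 ± 0.084 in control and -2.11 ± 0.35 in irisin. It fell by 1.03 on the log2 scale (SE 0.15, limma adjusted p = 0.00069), and its other probes differed by -0.88, which was also called, and -0.12. It was not called without scaling (-0.29), with the spike-in probes (-0.45) or with the default normexp (-0.47). It was the 1 called of 7 tested SRF cofactors and regulators, where Scai, which restrains MRTF, had the highest change at 0.0074 (SE 0.34). The MRTF genes Mrtfa (-0.32) and Mrtfb (-0.018) were not called.

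Cfl1, cofilin, which severs actin filaments, fell by 0.59 on the log2 scale (SE 0.11, limma adjusted p = 0.0023). Its other probes differed by -0.23 and -0.17 and were not called. The call was lost with quantile normalization (-0.34), cyclic loess (-0.40), the spike-in probes (-0.017), no scaling (0.15), the default normexp (-0.70, where no probe of the array was called) and normexp set from the negative control spots (-0.46). It was also lost without control replicate 1 (-0.54) or irisin replicate 3 (-0.56) or 4 (-0.52), just short of 1.5-fold. It was the 1 called of 11 genes of RhoA signaling and actin assembly. Diaph3, a formin that nucleates actin filaments, was the highest there at 0.49 (SE 0.17, limma adjusted p = 0.0656), and without irisin replicate 2 it was 0.67 and called.

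The other actins were measured beside the smooth-muscle actins. Actb, the cytoplasmic β-actin, read -0.44 (SE 0.11, limma adjusted p = 0.0138) and Actg1, the cytoplasmic γ-actin, -0.37 (SE 0.083, limma adjusted p = 0.00719), both under 1.5-fold. Without scaling they were 0.30 and 0.37. Both probes lay in decile 10, where the median was -0.20, and with quantile normalization they were -0.025 and 0.016. Further Actg1 probes ran from -0.66 to -0.034, of which that at -0.66 was called. Acta1, the skeletal actin, was -0.13 (SE 0.14), and Actc1, the cardiac actin, was not tested because it was not well above background on all arrays of a group. Cross-hybridization between such similar genes was not tested.

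No gene of the remaining 4 lists was called. Of 6 other tropomyosins, calponins and light chains, all 6 were below 0, Myl6 the lowest at -0.23 (SE 0.088), but 5 were above 0 under either quantile or loess normalization, and all 6 without scaling. Of 9 other smooth-muscle contractile genes, Mylk, the kinase that phosphorylates the light chain, was the lowest of those measured on all 8 arrays at -0.52 (SE 0.11, limma adjusted p = 0.00448) and Cald1, caldesmon, the highest at 0.092. Of 12 cytoskeletal SRF targets, Actn4 was -0.37 (SE 0.083, limma adjusted p = 0.00676) and Vcl, vinculin, 0.16. A second Vcl probe was 0.40 (SE 0.096, limma adjusted p = 0.0109), under 1.5-fold. Of 8 immediate-early SRF targets, Fosb was -0.53 (SE 0.097, limma adjusted p = 0.0023) and Fos 0.12. Mylk, Fosb and Actn4 were at 0.22, 0.21 and 0.36 without scaling. Actn4 lay in decile 10, where the median was -0.20, and was -0.13 with quantile normalization. Mylk and Fosb were dim like Acta2, at unscaled signals of 9.08 to 16.2 and 13.0 to 23.3. Both lay in decile 2, where 34.3% of probes were called lower.

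The hepatocyte label was checked with its markers. Of 8 hepatocyte markers, 7 had a probe, and all 7 passed the background test on each of the 8 arrays, with a summed unscaled signal of 135319 to 178450 in control and 216803 to 235290 in irisin. Krt18 gave 78410 to 96455 of that sum in control and 100681 to 111891 in irisin. None of the 7 was called, with Krt18 the lowest at -0.47 (SE 0.099, limma adjusted p = 0.00522) and Alb, albumin, the highest at 0.11. The Krt18 probe lay in decile 10, where the median was -0.20, and was -0.041 with quantile normalization. Of the 14 other smooth-muscle contractile genes, 9 were well above background on all 8 arrays. The summed unscaled signal of the list was 47749 to 59104.5 in control and 67139 to 74291 in irisin. Most of that sum came from 1 gene, Csrp1, at 41834 to 51890 in control and 55703 to 61553 in irisin. Another 4 of the 14, Myh11, Des, Lmod1 and Kcnmb1, were well above background on no array, at signals of 0.895 to 3.41.

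Markers of other cell types were read as well, and those of stellate cells and fibroblasts were mostly at background. Of 11 stellate cell and fibroblast markers, 8 were well above background on no array (Pdgfra, Pdgfrb, Lrat, Reln, Dcn, Lum, Thy1 and Col3a1). The summed unscaled signal of the 11 was 68.8 to 80.9 in control and 75 to 105.0 in irisin. Of the other 3, Col1a2, a chain of type I collagen, fell by 1.08 on the log2 scale (SE 0.21, limma adjusted p = 0.00293), whereas Col1a1, its partner chain, was 0.0064 (SE 0.12) and Postn was not called. The Col1a2 call was lost with the spike-in probes (-0.50) and without scaling (-0.34). Its unscaled signal was 17.2 to 32.1, in decile 3, where 19.6% of probes were called lower. Of 5 endothelial markers, 3 were well above background on no array, and the other 2 were Kdr, at -0.56 (SE 0.11, limma adjusted p = 0.0044) and not called, and Pecam1. Kdr gave 261 to 389 of the unscaled signal in control and 302 to 435 in irisin. Pecam1 fell by 0.61 (SE 0.11, limma adjusted p = 0.00214), which turned to 0.13 without scaling. Its unscaled signal was 16.6 to 27.0, in decile 2, where 34.3% of probes were called lower. The Pecam1 call was also lost with quantile normalization (-0.32), cyclic loess (-0.28) and the spike-in probes (-0.034), and without control replicate 4 or irisin replicate 1, where the change was -0.52 and -0.55, just short of 1.5-fold. The summed signal of the 5 endothelial markers was 281 to 414 in control and 326 to 464 in irisin. Of 4 macrophage markers, 2 were tested, Cd68 at 0.0062 and Csf1r at -0.49 (SE 0.083, limma adjusted p = 0.00139), neither called at the brightest probe, and the summed signal of the list was 195 to 318 in control and 361 to 400 in irisin. A second Csf1r probe was called at -0.74 (limma adjusted p = 0.000178). The part of such cells in the Acta2 values was not tested.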

How the data were processed

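RNA from 4 control and 4 irisin-treated AML12 cultures was labeled with Cy3 and hybridized to Agilent arrays by the authors, who deposited Feature Extraction 12.0.3.1 output and a table of values. Both hold the intensity of each spot or probe as deposited by the authors, background-subtracted, linear and without normalization across arrays. The table deviated from the mean of the spots by at most 0.0005% and was used as an alternative. The files place probes on mm9, so no probe coordinates are given.

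Of the 43020 non-control spots per array, marked ones (at most 0.463%) were left out. The rest were averaged by probe, and log2 was taken relative to the 75th percentile. Accessions were named through RefSeq (GRCm38.p6), for 28663 of 39429 probes. limma 3.58.1 in R 4.3.3 (lmFit, eBayes, Benjamini-Hochberg) was run on 24093 probes well above background on all 4 arrays of a group and was tested on simulated data. Tables were made in Python 3.11.15. The number of arrays limits the precision, and depth does not apply. Replicate numbers were checked for pairing, and the correlations of same-numbered deviations were 0.11, -0.35, -0.13 and 0.17. The control arrays of replicates 1 and 4 correlated best with the irisin array of their own number, and those of replicates 2 and 3 did not. The labels state no pairing, and these values cannot exclude one. The genes, the lists and the tests were chosen with earlier results of these data known. Named were all 10 genes, every called list gene, every other actin, the largest rise and fall of each list among genes well above background on all arrays, and the 5 probes most like Acta2. Mrtfa, Mrtfb, Postn, Kdr and undetected markers were named after their values were seen. Alternatives covered background correction, scaling, filters, thresholds, spots, the test, the block and each array left out. Protein identities and the other experiments of the study were not analysed here.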

Additional observations from a re-analysis of the deposited data

Results flagged for a closer look

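Of 78 groups of 4 arrays checked, 2 held an array whose gap to its nearest neighbor exceeded Dixon's critical value, a rate below the about 1 in 20 that chance gives. Irisin replicate 1 stood at -1.02 for Myl9, where the rest of that group ran from -0.69 to -0.65. Control replicate 2 stood at -5.43 for Scai, where the rest ran from -6.17 to -6.06.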

How the results depend on the processing

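Each alternative was run, and the cause of the differences was not tested except where said. Of the 18 contractile gene probes, 1 was called lower, and 0 with the default normexp, quantile, loess or spike-in normalization, no scaling or a 2-fold threshold, but 3 with adjusted p alone. None was called higher, but 5 against the spike-ins and 11 unscaled. Over all tested probes, 2816 were lower and 172 higher. These counts became 0 and 0 with the default normexp, 1021 and 670 under quantile normalization, 926 and 699 under cyclic loess, 362 and 7817 against the spike-ins, 162 and 14920 unscaled, 5197 and 713 with adjusted p alone, and 778 and 23 at 2-fold. Without the filter on dim probes 12750 were lower, and 55 were higher with normexp set from the negative control spots, which was chosen after seeing the data, and 108 with the methods' test. With an array left out, 103 (without irisin replicate 3) to 353 (without irisin replicate 2) were higher. The median of the 18 was -0.13, and -0.026 under quantile normalization, -0.0030 under cyclic loess, 0.45 against the spike-ins, 0.61 unscaled and -0.15 to -0.091 with an array left out. Acta2 was -0.68, but -0.28 under quantile normalization, -0.25 under cyclic loess, -0.10 against the spike-ins, 0.059 unscaled, 0.41 with the default normexp and -0.67 with normexp set from the negative control spots. The default fit put the background mean at -306 and -395 on irisin replicates 2 and 4, against -10.7 to -8.06 on the other 6 arrays. Both normexp settings added an offset of 50 to every spot, above the unscaled Acta2 signal, so the offset itself shapes their Acta2 values.

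Among the list genes named by the rule, the sign turned as follows. With cyclic loess, Acta1 was 0.059 and Myl6 0.018. With quantile normalization, Actg1 was 0.016, Acta1 0.022 and Myl6 0.15. Without scaling, Actb was 0.30, Actg1 0.37, Acta1 0.61, Myl6 0.50, Mylk 0.22, Actn4 0.36, Fosb 0.21, Cfl1 0.15, Krt18 0.27, Pecam1 0.13 and Csf1r 0.24. With spike-in scaling, Actb was 0.14, Actg1 0.20, Acta1 0.45, Myl6 0.34, Mylk 0.060, Actn4 0.20, Fosb 0.044, Krt18 0.11 and Csf1r 0.082. With the default normexp, Acta1 was 0.43, Cald1 -0.015, Mylk 0.40, Fosb 0.44, Alb -0.11, Col1a2 0.19 and Pecam1 0.36. With normexp set from the negative control spots, Scai was -0.52, Fos -0.19, Col1a1 -0.49 and Cd68 -0.10. With scaling to the median of detected probes, Scai was -0.0075, Col1a1 -0.0085 and Cd68 -0.0087. With an array left out, Scai ranged from -0.23 to 0.35, Cald1 from -0.074 to 0.18, Col1a1 from -0.058 to 0.090 and Cd68 from -0.068 to 0.095. With the replicate number as a block, Acta2 was -0.68 and 1 contractile gene probe was called lower, with 2832 of all tested probes lower and 173 higher. Same-numbered arrays had correlations of their deviations from -0.35 to 0.17, and the labels state no pairing, so the block is given as an alternative only. Probes near background are limited by their signal, as Acta2 is.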
